A study of Mus musculus with 20 samples.

Results

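The comparison of Pool 2 mice with Vehicle mice was examined across all genes of the hippocampus, using 10 of the 20 sequenced libraries, 5 from each group. All 20 animals were wild-type C57BL/6JOlaHsd male mice aged 4 months, implanted with bilateral cannulas into the dorsal hippocampus, and their tissue was taken 24 hours after behavioural testing had ended. Vehicle mice were infused with artificial cerebrospinal fluid without RNA. Pool 2 mice were infused with small RNAs (sRNAs) purified from post-mortem human hippocampi and mixed from a second set of patients with schizophrenia. Control mice received sRNAs of unaffected individuals and Pool 1 mice those of the first set of patients, and both served here to estimate the spread between mice and as reference levels. Every Pool 2 mouse received the same mixture, so the 5 animals are replicates of the infusion and not of the patients. Since Vehicle mice received no RNA at all, an effect of Pool 2 sRNAs and an effect of infusing any human sRNA cannot be told apart in this contrast. The question was which hippocampal genes differed between mice given the Pool 2 sRNAs and mice given the carrier fluid. The whole comparison was repeated without Pool 2 replicate 1 and Vehicle replicate 4, over what are called the 18 libraries. That pair was left out with its measured values known.

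The hippocampus encodes spatial and episodic memory through excitatory granule cells of the dentate gyrus and pyramidal cells of CA3, CA2 and CA1, held in check by inhibitory interneurons. Small RNAs such as microRNAs are loaded into Argonaute proteins and lower the stability and translation of messenger RNAs that they pair with. Foreign RNA can also be recognised by innate sensors, which induce interferon-stimulated genes, and tissue around an infusion site can hold reactive astrocytes, activated microglia and infiltrating immune cells. Because the tissue was sequenced in bulk, fewer cells of a type and less RNA per cell cannot be told apart.

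The Vehicle libraries held 20588280 to 25142848 counts and the Pool 2 libraries 21562625 to 25100519. Levels are CPM values, in which the counts of a library are divided by its scaled size. The floor used here, 3 counts, equals 0.119 to 0.146 CPM, depending on the library. Defining hippocampal and neuronal genes were well above that floor in all of them. Prox1, the dentate transcription factor, ranged from 83.5 to 186 CPM, and Wfs1, a marker of CA1 pyramidal neurons, ranged from 129.9 to 299 CPM. Slc17a7, the vesicular glutamate transporter, ranged from 1138 to 1606 CPM. A pair of libraries stood apart in gene groups described here. Pool 2 replicate 1 held 2124 CPM of summed antigen presentation genes, against 180 to 379 CPM in the 9 other libraries. Vehicle replicate 4 held 12782 CPM of summed choroid plexus genes, against 281 to 2280 CPM in the others.

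Over all 20 libraries, 706 of 25190 genes (2.8%) were upregulated and 475 (1.89%) were downregulated in Pool 2 mice. A gene was called when its log2 fold change reached 0.3 in either direction with p below 0.05 before adjustment. In edgeR 0 genes passed 0.05 after adjustment, where the smallest adjusted p-value was 0.489 and 1385 genes had an unadjusted p-value under 0.05. DESeq2 gave 9 such genes. Over the 18 libraries, 404 genes (1.6%) were upregulated and 382 (1.52%) downregulated, the smallest adjusted p-value was 0.775 in edgeR with 865 genes at an unadjusted p-value under 0.05, and DESeq2 gave 8 genes. The genes past the threshold in the same direction in both sets were 286 upregulated (1.14%) and 201 downregulated (0.798%), of which 182 and 104 were protein-coding. Every Pool 2 library lay above every Vehicle library for 101 genes (0.401%) and below for 88 genes (0.349%), counted over all genes tested. The median log2 fold change of all genes was 0.01 over the 20 libraries and 0.00 over the 18. Since no edgeR result passed the correction, the changes below are named by the unadjusted threshold and by their values in each mouse.

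The calls leaned on single mice. Of the 706 upregulated genes, 327 (46.3%) were highest in Pool 2 replicate 1, the library that was highest among Pool 2 mice for 27.8% of all genes. Of the 475 downregulated genes, 235 (49.5%) were highest in Vehicle replicate 4, against 19.7% of all genes. Over the 18 libraries, 187 of the 404 upregulated genes (46.3%) were highest in Pool 2 replicate 4, against 21.3% of all genes.

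The leading upregulated coding genes included 3 that were raised in nearly every Pool 2 mouse, Serpinf1, Sparc and Tph2. Serpinf1 encodes pigment epithelium-derived factor, a secreted serpin with neurotrophic and anti-angiogenic activity. It measured 19.6, 20.5, 18.3, 19.5 and 14.1 CPM in Pool 2 replicates 1 to 5, and 10.6, 9.83, 9.61, 9.74 and 12.7 CPM in Vehicle replicates 1 to 5. The groups did not overlap, and the means were 18.4 ± 2.51 and 10.5 ± 1.29 CPM (SD, n = 5 each), a 1.75-fold difference. Its log2 fold change was 0.81 ± 0.16 (SE; adjusted p = 0.489) over the 20 libraries and 0.76 over the 18. Control mice held 11.4 ± 1.40 CPM and Pool 1 mice 10.5 ± 3.10 CPM, close to the Vehicle level.

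Sparc, a secreted matricellular protein that binds collagen and is made by astrocytes and vessels, measured 467.5, 324, 301, 376 and 281 CPM in Pool 2 mice and 230.3, 209.8, 249, 239 and 257 CPM in Vehicle mice. Again all Pool 2 mice were above all Vehicle mice, with the highest value in Pool 2 replicate 1. The log2 fold change was 0.56 ± 0.12 (SE; adjusted p = 0.489) over the 20 libraries and 0.44 over the 18. Tph2, the rate-limiting enzyme of serotonin synthesis in neurons, measured 4.89, 2.69, 3.00, 4.26 and 3.82 CPM in Pool 2 mice against 1.81, 1.73, 1.90, 2.06 and 2.75 CPM in Vehicle mice. Here the highest Vehicle mouse, replicate 5, was just above the lowest Pool 2 mouse, replicate 2. Its log2 fold change was 0.86 ± 0.18 (SE; adjusted p = 0.489) and 0.75 over the 18 libraries.

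The other 7 leading upregulated coding genes had a different pattern among the mice, with Pool 2 replicate 4 highest and replicate 2 second in each. Tnnt1, the slow skeletal muscle form of troponin T, is also a member of the thalamus list described below. It measured 1.23, 12.5, 4.54, 27.8 and 2.92 CPM in Pool 2 mice and 0.996 to 2.14 CPM in Vehicle mice. Vipr2, a receptor for the peptides VIP and PACAP, measured 0.731, 6.23, 2.42, 10.5 and 1.25 CPM against 0.527 to 1.13 CPM. For both genes, Pool 2 replicate 1 lay within the Vehicle range. Nexn, which encodes the actin-binding protein nexilin, measured 1.37, 3.74, 1.62, 7.39 and 1.68 CPM against 1.04 to 1.31 CPM, and was the only gene of these 7 whose groups did not overlap. Opn3, an opsin outside the visual system, measured 0.594, 1.32, 1.21, 2.5 and 1.20 CPM against 0.161 to 0.716 CPM, with a log2 fold change of 1.59 ± 0.38 (SE; adjusted p = 0.631) over the 20 libraries and 1.88 over the 18. Adamts15, a secreted protease of matrix proteoglycans, had a log2 fold change of 0.83 ± 0.23 (SE; adjusted p = 0.886) and Tafa4, a secreted chemokine-like peptide, had 2.73 ± 0.73 (SE; adjusted p = 0.886). Abhd12b, a member of the alpha/beta hydrolase family, measured 0.0914, 1.44, 0.958, 3.92 and 0.258 CPM in Pool 2 mice, whereas Vehicle mice held 0 to 0.140 CPM, at or under the floor. More broadly, Pool 2 replicates 4 and 2 were the 2 highest Pool 2 libraries for 61 of the 130 coding genes upregulated in both sets whose mean normalized count reached 10 (46.9%), and for 10.8% of all coding genes above that count. The 130 genes had to pass again without Pool 2 replicate 1, which favours genes high in the other Pool 2 mice. Part of the difference between these shares may follow from that selection.

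**Figure D1:**
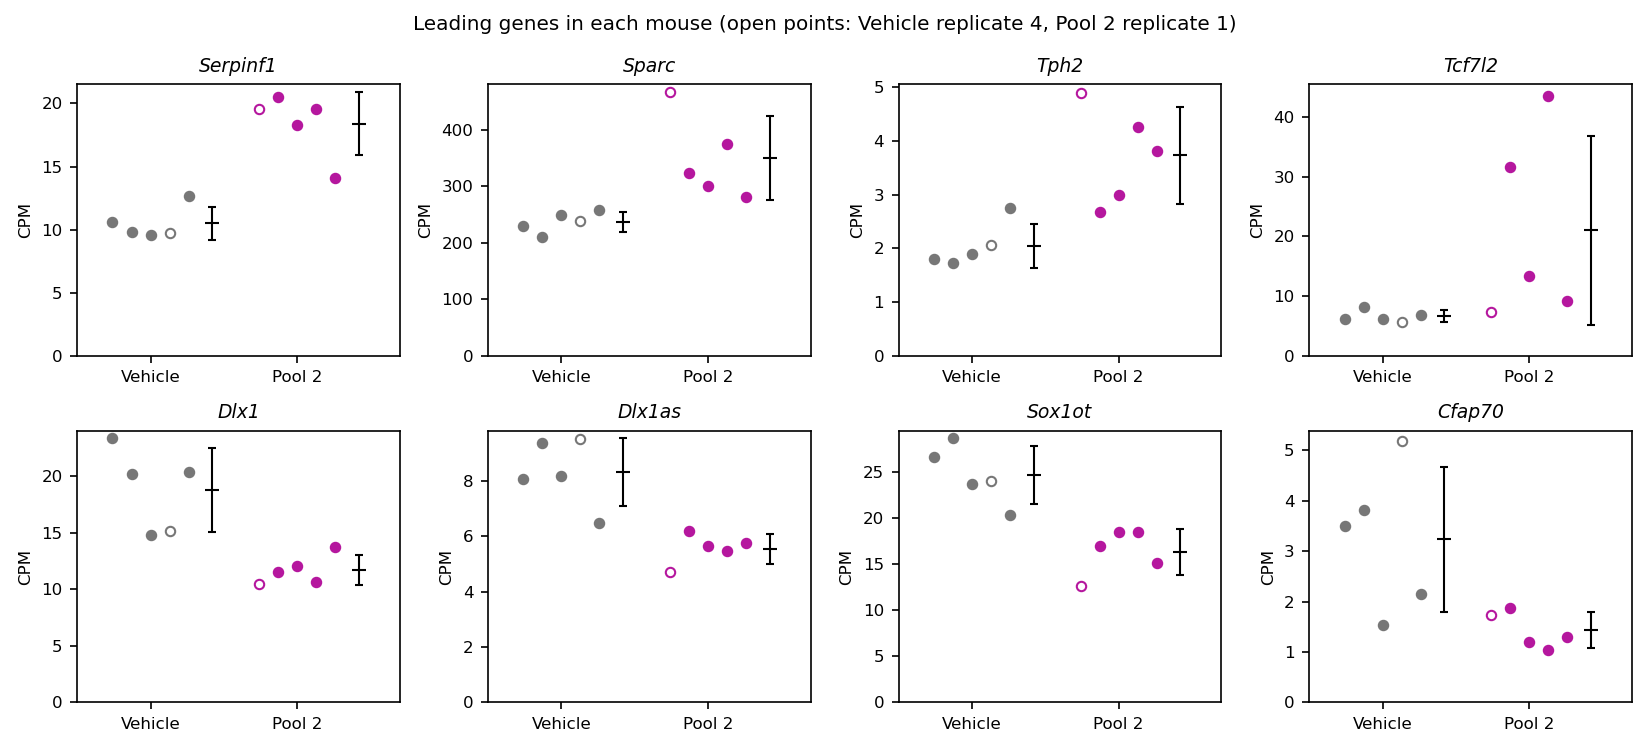
Expression in CPM (y axis, from 0) of 8 named genes in the 5 Vehicle and 5 Pool 2 mice, each point 1 mouse in replicate order, with the mean and SD beside each group and open points for Vehicle replicate 4 and Pool 2 replicate 1. Serpinf1, Sparc, Dlx1, Dlx1as and Sox1ot separate the groups in full, whereas Tcf7l2 is raised mainly in Pool 2 replicates 2 and 4 (31.6 and 43.5 CPM).

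The same 10 genes were read in the other infused groups. The contrasts with Control and Pool 1 mice use the same Pool 2 libraries as the contrast with Vehicle mice, so they are not independent of it. Against Control mice the log2 fold changes ranged from 0.40 (Tph2, SE 0.18, adjusted p = 0.612) to 1.98 (Abhd12b, SE 0.72, adjusted p = 0.522), and against Pool 1 mice from 0.65 (Sparc, SE 0.12, adjusted p = 0.128) to 3.10 (Tafa4, SE 0.76, adjusted p = 0.215). Serpinf1 had 0.69 against Control and 0.81 against Pool 1 mice.

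Genes that mark the thalamus, a region adjoining the hippocampus, were higher in the same Pool 2 mice. All 14 measured members of the list had a positive log2 fold change, with a median of 0.67 over the 20 libraries and 0.86 over the 18, against 0.01 and 0.00 for all genes. Of these, 6 were upregulated over the 20 libraries and 7 over the 18, where 2.8% and 1.6% of all genes were upregulated, and none was downregulated. Both counts include Tnnt1, named above among the leading genes. Tcf7l2, a transcription factor of the Wnt pathway that is prominent in thalamic neurons, measured 7.40, 31.6, 13.3, 43.5 and 9.15 CPM in Pool 2 mice and 6.24, 8.27, 6.26, 5.62 and 6.80 CPM in Vehicle mice. Replicates 2 and 4 thus held several times the Vehicle level and replicate 1 lay inside it. Its log2 fold change was 1.66 ± 0.49 (SE; adjusted p = 0.886) and 1.83 over the 18 libraries. Ramp3, an accessory protein of calcitonin family receptors, measured 3.11, 12, 9.33, 21 and 4.94 CPM against 2.90 to 4.65 CPM. Synpo2, an actin-binding protein, measured 8.50, 22.9, 13.5, 41.3 and 9.32 CPM against 6.06 to 10.4 CPM. Gbx2, a homeobox factor of the developing and adult thalamus, measured 0.137, 1.01, 0.167, 0.918 and 0.0859 CPM, and every Vehicle mouse held at most 0.0433 CPM, under the floor. Prkcd and Slc17a6, both abundant in thalamic relay neurons, had log2 fold changes of 0.69 (SE 0.43, adjusted p = 0.921) and 1.23 (SE 0.62, adjusted p = 0.901), which did not pass the threshold. The summed level of the list was 273, 610.3, 406, 934 and 359 CPM in Pool 2 replicates 1 to 5 and 309 to 395 CPM in Vehicle mice. Without Pool 2 replicate 4, 5 members were upregulated and the median was 0.25. The summed level of 18 leptomeningeal fibroblast genes was highest in the same mouse, at 1835 CPM in Pool 2 replicate 4 against 659 to 1128 CPM in the other Pool 2 mice and 596 to 868 CPM in Vehicle mice. The part of thalamic or leptomeningeal RNA in the other upregulated genes was not tested.

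Among the leading downregulated genes were Dlx1, its antisense RNA Dlx1as and the noncoding RNA Sox1ot, each lower in all Pool 2 mice than in any Vehicle mouse. Dlx1, a homeobox factor of GABAergic interneurons, measured 10.5, 11.5, 12.1, 10.6 and 13.7 CPM in Pool 2 mice and 23.3, 20.2, 14.8, 15.2 and 20.4 CPM in Vehicle mice. The means were 11.7 ± 1.33 and 18.8 ± 3.69 CPM (SD, n = 5 each). The log2 fold change was -0.68 ± 0.14 (SE; adjusted p = 0.489) over the 20 libraries and -0.71 over the 18. Dlx1as, a long noncoding RNA transcribed from the opposite strand, measured 4.71, 6.19, 5.67, 5.47 and 5.76 CPM against 8.09, 9.39, 8.20, 9.52 and 6.47 CPM. Its log2 fold change was -0.58 ± 0.13 (SE; adjusted p = 0.491). In GRCm38, Dlx1 lies on the plus strand of chromosome 2 (71528113 to 71533981) within the span of Dlx1as on the minus strand (71516454 to 71537891). The libraries were stranded, but the strand setting of the counting is not given in the sources used here, so reads of the pair may have been shared.

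The other Dlx genes were read after these values were seen. Dlx6 was downregulated in both sets, with a log2 fold change of -0.61 ± 0.21 (SE) over the 20 libraries and -0.57 over the 18. Dlx2 had -0.37 over the 20 libraries (SE 0.18, adjusted p = 0.9) and -0.33 over the 18, where it no longer passed, although all Pool 2 mice (2.65 to 3.44 CPM) were below all Vehicle mice (3.55 to 4.80 CPM). Dlx5 had -0.39 (SE 0.20, adjusted p = 0.901). The 16 measured markers of inhibitory interneurons included no call in either set, and their median log2 fold change was -0.14 over the 20 libraries and -0.04 over the 18. Among them, Gad1 and Gad2, the enzymes of GABA synthesis, had -0.14 (SE 0.09, adjusted p = 0.922) and -0.28 (SE 0.14, adjusted p = 0.901). Against Control mice Dlx1 had a log2 fold change of -0.45 (SE 0.14, adjusted p = 0.479) and against Pool 1 mice -0.44 (SE 0.14, adjusted p = 0.354), with Control mice at 16.0 ± 3.46 CPM and Pool 1 mice at 15.8 ± 1.57 CPM.

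Sox1ot, the long noncoding RNA that spans the neural stem cell gene Sox1, measured 12.7, 16.9, 18.5, 18.4 and 15.2 CPM in Pool 2 mice and 26.7, 28.7, 23.7, 24.0 and 20.3 CPM in Vehicle mice. Every Pool 2 mouse was below every Vehicle mouse. The log2 fold change was -0.59 ± 0.13 (SE; adjusted p = 0.489) over the 20 libraries and -0.52 over the 18. Itprid1, a gene named for its interaction domain with inositol trisphosphate receptors, measured 1.55, 1.44, 1.83, 1.42 and 1.46 CPM against 1.90, 3.07, 3.03, 2.54 and 2.19 CPM, likewise without overlap. Wdr38, a WD repeat protein, lay at 0.301 to 0.545 CPM against 0.565 to 1.73 CPM, and Fndc9 and Gm19426 had log2 fold changes of -1.08 and -1.19.

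Col6a3 and Ano2 were downregulated with a wide spread among the Vehicle mice. Col6a3, a chain of collagen VI, measured 2.79, 5.06, 2.96, 4.80 and 3.39 CPM in Pool 2 mice and 21.2, 10.7, 4.60, 7.15 and 8.47 CPM in Vehicle mice. Ano2, a calcium-activated chloride channel, measured 0.708 to 1.67 CPM against 5.56, 2.86, 1.61, 1.89 and 3.17 CPM. In both genes Vehicle replicate 1 was the highest mouse and Vehicle replicate 3 fell within the Pool 2 range. Their log2 fold changes were -1.45 ± 0.31 and -1.26 ± 0.30 (SE). Control and Pool 1 mice were low as well, at 4.41 ± 1.64 and 3.01 ± 0.394 CPM for Col6a3, and at 1.78 ± 0.388 and 1.12 ± 0.298 CPM for Ano2. The log2 fold changes of Pool 2 against Control mice were -0.21 (SE 0.32, adjusted p = 0.931) for Col6a3 and -0.50 (SE 0.30, adjusted p = 0.74) for Ano2. Of the 10 leading downregulated coding genes, 2 were also downregulated against Control mice and 2 against Pool 1 mice over the 20 libraries. A negative log2 fold change was found for 7 and 6 of them. Of all 25190 genes, 255 and 292 were downregulated in those contrasts, which use the same Pool 2 libraries.

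Genes of motile cilia made up a further part of the downregulated genes. Motile cilia are carried in the brain by ependymal cells that line the ventricles and by cells of the choroid plexus, and they beat through axonemal dynein motors (Dnah genes) fixed to a scaffold of cilia and flagella associated proteins (Cfap genes). Among the 10 leading downregulated coding genes, Cfap70, Cfap54 and Catip carry names that refer to cilia, and this prompted a count over the whole family, made after the values were seen. Of the 47 measured coding genes with Cfap or Dnah symbols, 15 were downregulated over the 20 libraries, 15 over the 18 and 13 in both, and none was upregulated. Over all genes the shares downregulated were 1.89%, 1.52% and 0.798%. Their median log2 fold change was -0.46 over the 20 libraries and -0.40 over the 18.

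Cfap70 measured 1.74, 1.87, 1.21, 1.04 and 1.29 CPM in Pool 2 mice and 3.50, 3.81, 1.53, 5.18 and 2.14 CPM in Vehicle mice, with a log2 fold change of -1.17 ± 0.30 (SE; adjusted p = 0.86). Cfap54 measured 7.18, 6.46, 5.08, 4.26 and 6.36 CPM against 10.7, 11, 6.26, 8.69 and 6.42 CPM. Vehicle replicates 1, 2 and 4 were the high mice of the family, and Vehicle replicate 3 lay among the Pool 2 mice. The dynein genes Dnah9 and Dnah11 had log2 fold changes of -0.39 (SE 0.13, adjusted p = 0.886) and -1.54 (SE 0.56, adjusted p = 0.886), and both passed in the 18 libraries. The summed level of the 47 genes was 346.5 to 417.5 CPM in Pool 2 mice and 375 to 529.8 CPM in Vehicle mice. Foxj1, the master regulator of motile cilia, measured 6.34 to 13.7 CPM against 7.11 to 20.9 CPM and did not pass the threshold (log2 fold change -0.65, SE 0.42, adjusted p = 0.922). As with Col6a3, the other infused groups were not at the Vehicle level. Cfap70 measured 1.67 ± 0.508 CPM in Control and 1.64 ± 0.501 CPM in Pool 1 mice, and its log2 fold change of Pool 2 against Control mice was -0.22 (SE 0.30, adjusted p = 0.926).

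The count of downregulated cilia genes depended on single mice. It ranged from 11 to 22 when any of the 10 libraries was left out of the 20. Within the 18 libraries it was 5 without Pool 2 replicate 4, 7 without Vehicle replicate 1 and 7 without Vehicle replicate 2. Choroid plexus genes, whose cells also carry cilia, were highest in Vehicle replicate 4, and without that library 13 members of the family were downregulated over the remaining 19. On summed CPM, Vehicle replicates 4, 2, 1, 5 and 3 ranked in that order for both gene groups. Their summed levels were 12782, 2027, 1497, 671 and 460 CPM for choroid plexus and 530, 475, 469, 428 and 375 CPM for cilia genes. On mean log2 CPM the choroid plexus order was the same, but that of the cilia genes was not. There, Vehicle replicates 2, 1, 4, 5 and 3 held 2.25, 2.18, 2.15, 1.75 and 1.34. Among Pool 2 mice the order differed, with replicate 3 highest for choroid plexus (2280 CPM) and replicate 1 for cilia genes (417.5 CPM). The part of choroid plexus RNA in the cilia genes was not tested.

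The promoters of the Cfap and Dnah genes were read for the half-site of the RFX factors, which bind the promoters of many cilia genes. The letters GTTGCC were searched on both strands of the RefSeq windows of 300 bases (250 before to 50 after the start, GRCm38.p6). They occurred in 15 of 42 windows of 39 family members (35.7%), in 1 of 10 windows of the members downregulated in both sets and in 12.5% of all 32851 windows. A pair of members downregulated in both sets is shown, with the match in capitals on its reverse strand in the Cfap46 window (chr7:139683766-139684065, minus strand) and no match in the Cfap70 window (chr14:20452176-20452475, minus strand).
Cfap46: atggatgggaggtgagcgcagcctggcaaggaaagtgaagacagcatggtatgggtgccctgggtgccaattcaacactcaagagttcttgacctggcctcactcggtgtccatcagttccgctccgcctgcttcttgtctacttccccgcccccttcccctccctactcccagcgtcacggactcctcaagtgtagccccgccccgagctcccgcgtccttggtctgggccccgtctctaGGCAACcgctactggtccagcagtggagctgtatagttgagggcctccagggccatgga
Cfap70: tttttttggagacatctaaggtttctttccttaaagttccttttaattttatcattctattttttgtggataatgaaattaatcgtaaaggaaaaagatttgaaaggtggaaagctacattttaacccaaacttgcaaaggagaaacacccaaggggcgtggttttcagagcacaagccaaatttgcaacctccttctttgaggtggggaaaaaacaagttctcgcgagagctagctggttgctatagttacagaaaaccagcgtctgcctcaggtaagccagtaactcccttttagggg
Cfap46 itself measured 4.43, 3.54, 1.54, 2.42 and 2.83 CPM in Pool 2 mice and 7.5, 5.76, 2.75, 3.42 and 3.35 CPM in Vehicle mice, with a log2 fold change of -0.63 over the 20 libraries (SE 0.28, adjusted p = 0.886) and -0.90 over the 18 (SE 0.29, adjusted p = 0.998).

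**Figure D2:**
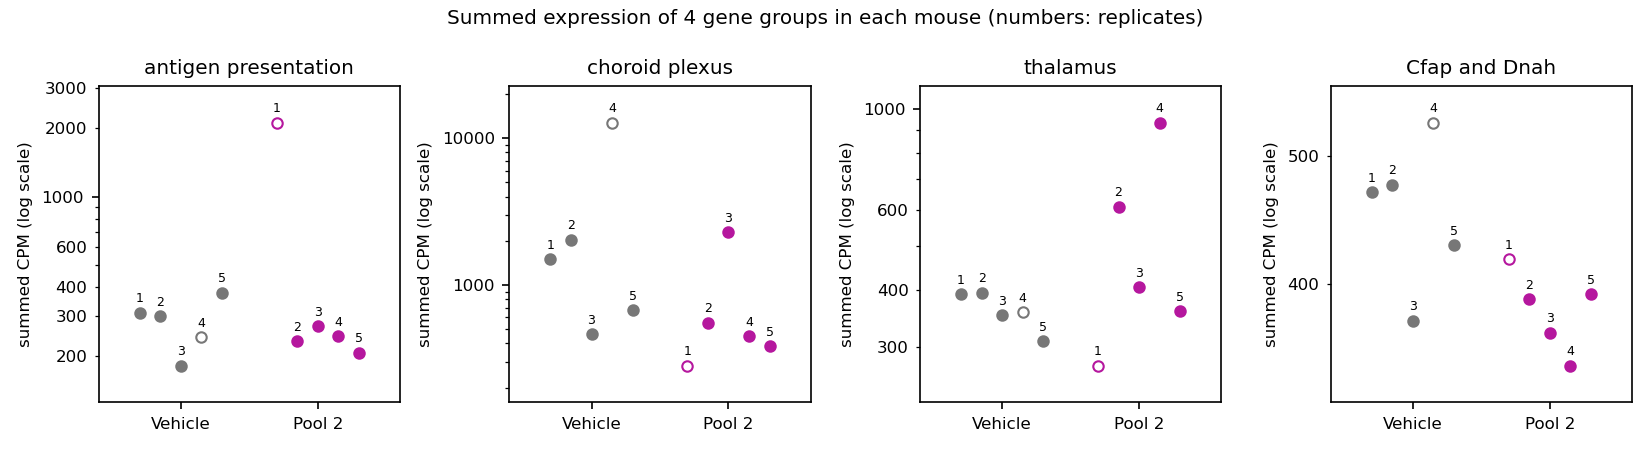
Summed CPM (log y axis) of 4 gene groups in each Vehicle and Pool 2 mouse, numbered by replicate, with open points for Vehicle replicate 4 and Pool 2 replicate 1. Antigen presentation genes stand at 2124 CPM in Pool 2 replicate 1 alone, choroid plexus genes at 12782 CPM in Vehicle replicate 4 alone, thalamus genes are highest in Pool 2 replicates 4 and 2, and Cfap and Dnah genes are highest in Vehicle replicates 4, 2 and 1.

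Immune genes were upregulated over the 20 libraries and not over the 18. Of 101 measured genes of RNA sensing, interferon response, antigen presentation, complement, cytokines and microglia, 21 were upregulated over the 20 libraries with none downregulated, and their median log2 fold change was 0.54. Over the 18 libraries none was upregulated, the median was -0.08, and 3 were downregulated, namely Mavs (-0.32), Xaf1 (-0.49) and Ccl5 (-1.62). Of all genes, 2.8% were upregulated over the 20 libraries, and 1.6% were upregulated and 1.52% downregulated over the 18. Antigen presentation had the largest share, with 9 of 14 genes upregulated and a median of 1.42. Cd74, the invariant chain of MHC class II, measured 389.6 CPM in Pool 2 replicate 1, 9.15, 4.5, 7.80 and 3.95 CPM in Pool 2 replicates 2 to 5, and 2.54 to 7.5 CPM in Vehicle mice. The other 4 Pool 2 mice overlapped with the Vehicle mice. H2-Aa and H2-Ab1, MHC class II chains, measured 162 and 142 CPM in that mouse and at most 4.76 and 3.84 CPM in the other Pool 2 mice. Ciita, the transactivator of these genes, measured 8.09 CPM there and at most 0.428 CPM elsewhere in the 10 libraries.

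Leaving out Pool 2 replicate 1 alone took the antigen presentation count from 9 to 0, its median to -0.02, and the count of interferon-stimulated genes from 4 of 25 to 0. That count of 4 was 2 without Vehicle replicate 3 or without Vehicle replicate 4, 8 without Vehicle replicate 2 and 7 to 12 without any of Pool 2 replicates 2 to 5. The complement list had 3 of 12 genes upregulated, the cytokine list 2 of 20, the list of foreign RNA sensors 2 of 15 (Dhx58 and Zbp1) and the microglia list 1 of 16 (Cd68). The share of all genes upregulated over the 20 libraries was 2.8%. Without Pool 2 replicate 1 the cytokine, RNA sensor and microglia lists had 0 upregulated genes and the complement list 2. Leaving out other single libraries gave up to 6 microglia genes (without Pool 2 replicate 4), up to 6 complement genes (without Pool 2 replicate 4 or 5) and up to 4 RNA sensors (without Pool 2 replicate 2, 4 or 5). The RNA sensor count was 1 without Vehicle replicate 3 or 4. The summed level of 11 blood genes was highest in Pool 2 replicate 1 too, at 184 CPM against 41.2 to 99.4 CPM in the 9 other libraries, and the part of blood in these results was not tested. Further genes of immune cells that lost their call were Ccl2, a monocyte chemokine (2.38 CPM in Pool 2 replicate 1 and 0.0465 to 0.376 CPM in the 9 other mice), Nkg7, a granule protein of cytotoxic lymphocytes (1.69 CPM and 0.0404 to 0.376 CPM), and Alox5ap, of leukotriene synthesis (8.96 CPM and 2.24 to 4.46 CPM). For Alox5ap the groups did not overlap, and its log2 fold change over the 18 libraries was 0.32 (SE 0.17, adjusted p = 0.998). B430306N03Rik went with them, whereas Csdc2, an RNA-binding protein, lay at 96.8 to 111 CPM in Pool 2 and 72.9 to 93.8 CPM in Vehicle mice and had a log2 fold change of 0.25 over the 18 libraries (SE 0.10, adjusted p = 0.998), under the fold threshold.

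Choroid plexus genes followed the other library. Of 12 measured, 8 were downregulated over the 20 libraries, with a median log2 fold change of -2.30, and none over the 18, with a median of -0.39. The shares of all genes downregulated were 1.89% and 1.52%. Enpp2, or autotaxin, measured 179 to 736 CPM in Pool 2 mice and 661, 740.0, 237, 3452 and 302 CPM in Vehicle mice. Kl, the anti-ageing factor klotho, measured 30.7 to 62.5 CPM and 62.7, 79.4, 45.1, 324 and 38.3 CPM. Vehicle replicate 4 was far above the rest in both. The count of 8 was 0 without Vehicle replicate 4, and 5 without any of Pool 2 replicates 1, 2, 4 and 5. It was 12, with a median of -3.14, without Pool 2 replicate 3, which held 2280 CPM of these genes against 281 to 553 CPM in the other Pool 2 mice. Over the 18 libraries the median was -1.60 without that mouse and -0.11 without Vehicle replicate 2. Of the coding genes downregulated over the 20 libraries but not the 18, Col17a1, Wdr72, Tc2n, Tjp3 and Baiap2l1 had the smallest p-values, and all 5 were highest in Vehicle replicate 4. Tjp3, a tight junction protein, measured 8.78 CPM there and 0.969 to 3.16 CPM in the other Vehicle mice.

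**Figure D3:**
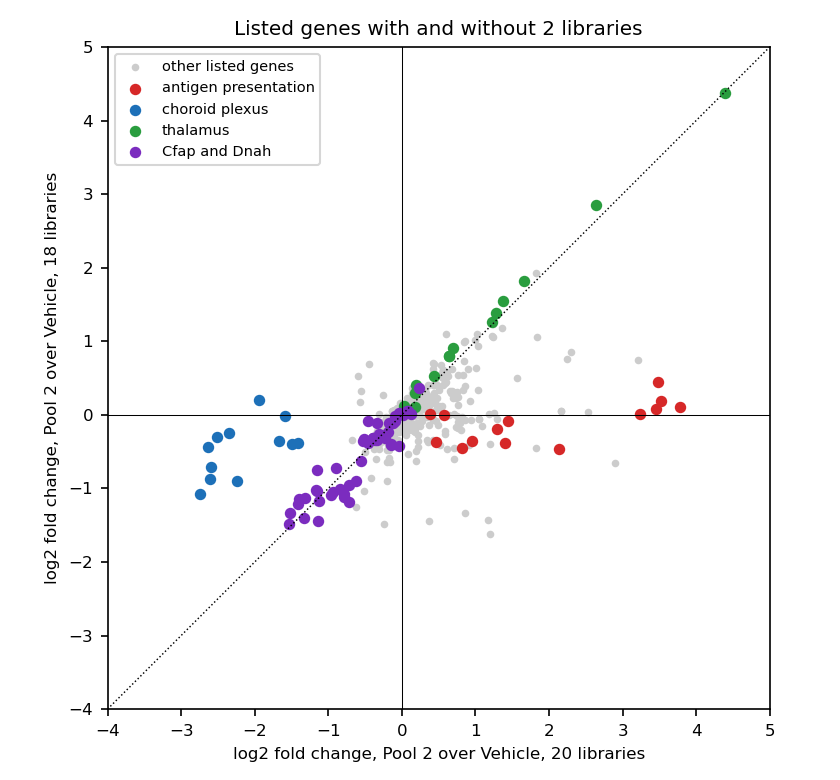
Log2 fold change of Pool 2 over Vehicle for each listed gene with all 20 libraries (x axis) and with the 18 (y axis), each point 1 gene, with the dotted line marking equal values. Antigen presentation genes lie at up to 3.78 on the x axis and between -0.47 and 0.44 on the y axis, choroid plexus genes move from a median of -2.30 to -0.39, and thalamus, Cfap and Dnah genes stay near the line.

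Astrocyte genes held a smaller number of calls that remained in both sets. Over all genes, 2.8% were upregulated over the 20 libraries, 1.6% over the 18 and 1.14% in both. Of 18 markers of reactive astrocytes, 9 were upregulated over the 20 libraries (median log2 fold change 0.61) and 2 over the 18 (median 0.15). Those 2 were Aspg, an asparaginase induced in reactive astrocytes, and Fbln5, an elastic fibre protein. Aspg measured 10.4, 8.06, 7.04, 6.09 and 4.42 CPM in Pool 2 mice and 4.72, 3.94, 4.08, 2.59 and 4.84 CPM in Vehicle mice, so that only Pool 2 replicate 5 lay within the Vehicle range. The count of 9 was 4, with a median of 0.27, without Pool 2 replicate 1 and 5 without Vehicle replicate 3. Of 14 homeostatic astrocyte genes, 3 were upregulated over the 20 libraries and 1 over the 18, and 13 and 11 had a positive log2 fold change, with medians of 0.18 and 0.11. The gene in both sets was Gjb6, the astrocyte gap junction protein connexin 30, which measured 64.9, 50.7, 42.2, 64.5 and 50.6 CPM against 37.8, 31.0, 42.6, 35.4 and 47.2 CPM, a log2 fold change of 0.49 ± 0.12 (SE). The count of 3 was 1 without Pool 2 replicate 1, without Vehicle replicate 1 or without Vehicle replicate 4. Tnc, the matrix protein tenascin C, was the only upregulated member of the 15 genes of perineuronal nets, the matrix around inhibitory neurons. It measured 7.45, 8.53, 10.5, 12.5 and 8.72 CPM against 5.65, 7.27, 7.71, 4.61 and 6.42 CPM, with a log2 fold change of 0.59 ± 0.20 (SE; adjusted p = 0.886), and only Pool 2 replicate 1 lay within the Vehicle range.

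Of genes of transmitter release and reception, 1 was called. None of 35 measured synaptotagmins and genes of vesicle fusion and priming passed the threshold in either set, with log2 fold changes from -0.24 to 0.43 and a median of -0.01 over the 20 libraries. Of 27 subunits of GABA-A and ionotropic glutamate receptors, 1 was upregulated over the 20 libraries, Gabrd, the delta subunit of extrasynaptic GABA-A receptors, with a log2 fold change of 0.47 (SE 0.22, adjusted p = 0.9) and 0.42 over the 18 (SE 0.23, adjusted p = 0.998). Calls of 0 of 35 and 1 of 27 are near the shares over all genes, 2.8% upregulated and 1.89% downregulated, and nothing is read from them. Syt1, the calcium sensor of fast transmitter release, and Syt11, a family member that does not sense calcium, had log2 fold changes of -0.15 (SE 0.11, adjusted p = 0.93) and -0.18 (SE 0.08, adjusted p = 0.886), both short of the fold threshold. All Pool 2 mice (595 to 734 CPM) were below all Vehicle mice (740.3 to 816 CPM) for Syt11. Of 18 immediate early genes, which neurons induce on activity, Nr4a3 was downregulated in both sets (-0.44 ± 0.13, SE), at 67.9 to 98.0 CPM in Pool 2 mice and 87.9 to 145 CPM in Vehicle mice. Homer1 was downregulated over the 20 libraries only (-0.34; SE 0.14, adjusted p = 0.886). That count of 2 was 1 without Vehicle replicate 2 or 4 and 3 without Vehicle replicate 5. The median log2 fold change of the immediate early genes was -0.14 over the 20 libraries and -0.30 over the 18, with 7 and 4 members positive. Their summed level was highest in Pool 2 replicate 1, at 1250 CPM. It was 796 to 915 CPM in the other Pool 2 mice and 788 to 1207 CPM in Vehicle mice.

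Syt2, Pvalb, Gfap and Aif1 were read in all 4 groups, since they mark synapses and cell bodies of parvalbumin interneurons, astrocytes and microglia. Syt2 measured 25.1, 26.8, 21, 29.0 and 48.5 CPM in Pool 2 mice and 37.0, 26.2, 30.1, 21.6 and 18.6 CPM in Vehicle mice. The groups overlapped, with Pool 2 replicate 5 alone above every Vehicle mouse, and the difference of mean log2 CPM was 0.15 (two-sided exact permutation p = 0.603, adjusted over the 4 genes p = 0.804). The edgeR log2 fold change was 0.17 ± 0.22 (SE; adjusted p = 0.961), and -0.069 without Pool 2 replicate 5. Control mice held 22.1 ± 2.80 CPM and Pool 1 mice 31.3 ± 7.96 CPM. Pvalb measured 27.4 ± 6.11 CPM in Pool 2 and 24.5 ± 3.67 CPM in Vehicle mice (SD, n = 5 each), which overlapped, with an exact permutation p of 0.421 (adjusted over the 4 genes p = 0.804).

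Gfap, the astrocyte intermediate filament, measured 1401, 740.2, 836, 504 and 625 CPM in Pool 2 mice and 507, 617, 524, 362 and 564 CPM in Vehicle mice. Pool 2 replicates 1, 2, 3 and 5 were above all Vehicle mice and replicate 4 was inside their range. The edgeR log2 fold change was 0.67 ± 0.22 (SE; p = 0.00554) over the 20 libraries and 0.29 (p = 0.0754) over the 18, while the exact permutation test gave p = 0.0556 and p = 0.2 (adjusted over the 4 genes p = 0.222 and p = 0.4). Aif1, which encodes the microglial protein IBA1, measured 29.7 CPM in Pool 2 replicate 1, 4.59 to 8.0 CPM in the other Pool 2 mice, and 5.31 to 10.7 CPM in Vehicle mice. Its log2 fold change was 0.52 (p = 0.223) over the 20 libraries and -0.42 (p = 0.0717) over the 18, with exact permutation p-values of 0.889 and 0.114 (adjusted over the 4 genes p = 0.889 and p = 0.4). The smallest p-value these permutations can give is 0.00794 with 5 mice a group and 0.0286 with 4.

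**Figure D4:**
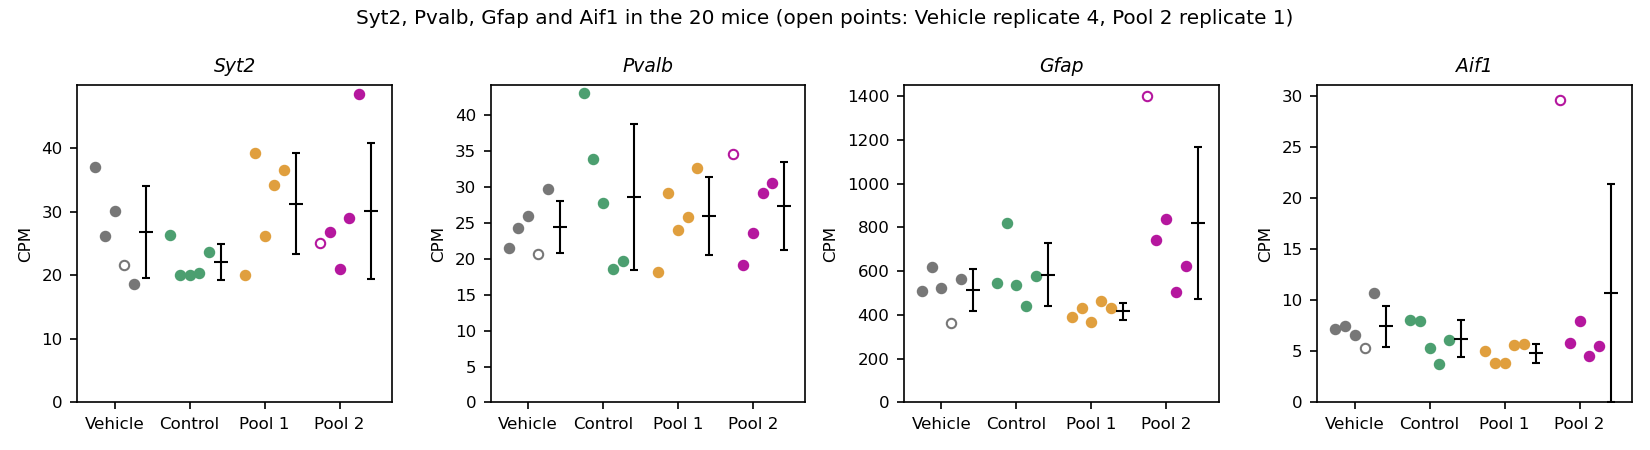
Expression in CPM (y axis, from 0) of Syt2, Pvalb, Gfap and Aif1 in the 5 mice of each of the 4 groups, each point 1 mouse, with the mean and SD beside each group and open points for Vehicle replicate 4 and Pool 2 replicate 1. Syt2 and Pvalb overlap between Vehicle and Pool 2 mice, and Gfap and Aif1 reach 1401 and 29.7 CPM in Pool 2 replicate 1.

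Of the markers of hippocampal subfields, 1 was called. All 12 dentate granule cell genes had a positive log2 fold change in both sets, with medians of 0.22 and 0.21, and none was called. Their summed level was 1148 CPM in Pool 2 replicate 2, 756 to 866 CPM in the other Pool 2 mice and 619 to 912 CPM in Vehicle mice, and without Pool 2 replicate 2 the medians were 0.091 and 0.036. Among them, C1ql2, a synaptic organiser secreted at mossy fibre terminals, measured 113, 129, 154, 102 and 110.4 CPM in Pool 2 mice and 92.9, 56.5, 77.3, 56.8 and 94.1 CPM in Vehicle mice, without overlap (log2 fold change 0.69, SE 0.34, adjusted p = 0.901). No call was found among 9 CA1 and 12 neocortex genes, whose medians were -0.12 and -0.03. Of 12 CA3 and CA2 genes, Map3k15 was downregulated over the 20 libraries only (-0.68, SE 0.32, adjusted p = 0.9). Over all genes, 1.89% were downregulated in that set.

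Of the other lists, no call in either set was found among 13 Argonaute and small RNA processing genes (median -0.04), 15 oligodendrocyte genes (-0.12), 16 endothelial genes (0.18), 15 circadian clock genes (0.09), 15 heat shock genes (-0.06) and 13 mitochondrially encoded genes (0.10). Ago2, the Argonaute that cleaves its targets, measured 103 to 134 CPM in Pool 2 and 75.9 to 146 CPM in Vehicle mice. Among 18 leptomeningeal fibroblast genes 1 was upregulated in each set, Col1a2 over the 20 libraries and Igfbp2 over the 18, with medians of 0.41 and 0.46. The medians were 0.19 and 0.20 without Pool 2 replicate 4. The count was 5 and 4 without Pool 2 replicate 3, and over the 20 libraries it was 3 without Pool 2 replicate 1 or Vehicle replicate 5 and 0 without any of Pool 2 replicates 2, 4 and 5 and Vehicle replicates 2 and 3. Of 11 blood genes 3 were upregulated over the 20 libraries and none over the 18, and over the 20 the count was 0 without Pool 2 replicate 1 and 1 without Vehicle replicate 4. Rpl32 and Rps18 of 21 ribosomal protein genes, Draxin of 12 adult neurogenesis genes and Hif3a of 16 glucocorticoid responsive genes were upregulated over the 20 libraries only. The ribosomal count of 2 ranged from 0 to 6 when 1 library was left out, with 6 without Pool 2 replicate 2 and 4 without Vehicle replicate 5. Chgb of 20 neuropeptide and secretogranin genes was downregulated over the 20 libraries, and Crh of that list and H1f4 of 10 replication-dependent histones over the 18 only. In all, the 35 lists held 511 genes, of which 51 were upregulated and 12 downregulated over the 20 libraries, and 13 and 6 over the 18. Over all genes, 2.8% and 1.89% were upregulated and downregulated in the 20 libraries, and 1.6% and 1.52% in the 18.

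RNAs without a poly(A) tail or with sequence like ribosomal RNA differed between Vehicle mice. Of 12 measured, 3 were upregulated over the 20 libraries (Gm26917, Gm24270 and Scarna2) and Scarna2 alone over the 18, and the medians were 1.03 and 0.83. The shares of all genes upregulated were 2.8% and 1.6%. The count of 3 was 6 without Vehicle replicate 1 or 2, 5 without Pool 2 replicate 2, and 1 without any of Pool 2 replicates 3 and 5 and Vehicle replicates 3, 4 and 5. Gm42418, which overlaps a ribosomal RNA repeat, measured 2963 to 8307 CPM in Pool 2 mice and 4396, 4344, 544.5, 1175 and 1631 CPM in Vehicle mice. Vehicle replicates 3, 4 and 5 were thus the low libraries. The libraries were selected for poly(A) RNA, and the part of these RNAs in other results was not tested.

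The leading genes of other biotypes were mostly of low expression. Among those upregulated, Gm43398 measured 2.38, 7.63, 4.08, 12.2 and 3.09 CPM in Pool 2 mice and 1.36 to 3.37 CPM in Vehicle mice, with replicates 4 and 2 highest, as for the thalamus genes. Gm9905 lay at 0.644 to 0.960 CPM against 0.303 to 0.606 CPM and Rpsa-ps11 at 0.503 to 0.875 CPM against 0.202 to 0.439 CPM, both without overlap. The pseudogenes Pcna-ps2 and Rpl3-ps1 were each high in 2 Pool 2 mice (3.11 and 2.69 CPM in replicates 1 and 2, and 16.2 and 13.1 CPM in replicates 3 and 4). Such copies share reads with their parent genes, so their values are uncertain. Among those downregulated, A730011C13Rik lay at 0.583 to 0.974 CPM against 1.17 to 2.00 CPM without overlap, Gm44220 at 0.935 to 1.5 CPM against 1.49 to 2.89 CPM, and Gm1821 at 0.558 to 1.34 CPM against 0.843 to 1.56 CPM with 14.7 CPM in Vehicle replicate 5.

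The 9 genes with an adjusted p-value under 0.05 in DESeq2 over the 20 libraries were Rps13-ps1, Serpinf1, Col6a3, Abhd12b, Tph2, Dlx1, Dlx1as, Sparc and Sox1ot. Apart from Rps13-ps1, each is among the leading edgeR genes above, with DESeq2 adjusted p-values from 0.0125 (Serpinf1) to 0.047 (Sparc and Sox1ot). Rps13-ps1, a processed pseudogene with an adjusted p-value of 1.06e-08, measured 21.6 and 5.88 CPM in Pool 2 replicates 1 and 2, at most 0.0417 CPM in the other Pool 2 mice and 0 in all Vehicle mice. Over the 18 libraries the 8 genes were Abhd12b, Rab37, Opn3, Dlx1, Col6a3, Tnnt1, Igha and Tafa4, with adjusted p-values from 0.0135 to 0.0494. Of these, Abhd12b, Col6a3 and Dlx1 were also among the 9.

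The number of changed genes moved with the mice included. Leaving out each of the 10 libraries in turn gave 477 to 823 upregulated and 317 to 664 downregulated genes. The lowest upregulated count came without Pool 2 replicate 1 and the lowest downregulated count without Vehicle replicate 4. All 10 leading upregulated coding genes stayed past the threshold in every alternative fit in which they were tested, as did 9 of the 10 leading downregulated coding genes, the exception being Catip. These genes were chosen for passing in both sets, and the alternative fits reuse most of the same libraries. Their staying past the threshold is therefore no independent support.

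**Figure D5:**
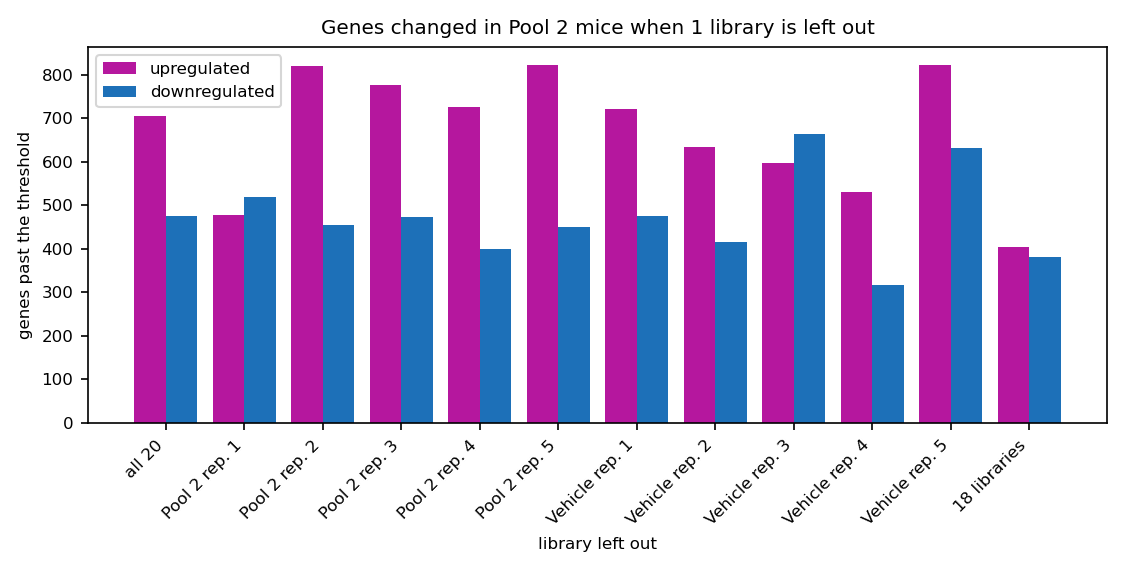
Number of upregulated and downregulated genes (bars from 0) in Pool 2 mice with all 20 libraries, with each of the 10 Pool 2 and Vehicle libraries left out in turn, and with the 18 libraries. Upregulated genes fell from 706 to 477 without Pool 2 replicate 1 and downregulated genes from 475 to 317 without Vehicle replicate 4.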

How the data were processed

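The authors deposited a table of raw read counts per gene for 20 hippocampal libraries, made from single-end reads of stranded poly(A)-selected RNA that were aligned to the mouse genome with STAR 2.5.3a and counted per gene on GENCODE M20, per the methods. Which strand setting was used for the counting is not given in the sources used here. Symbols and biotypes came from the deposited table. GENCODE M21 names were used to restore, by gene ID, 15 symbols that a spreadsheet had turned into dates. They also served to match list symbols absent from the deposited table. All 25190 deposited genes were tested, since every row held at least 10 counts.

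Counts were analysed with edgeR 4.0.16 in R 4.3.3, with TMM scaling, a robust quasi-likelihood fit of 4 groups over the 20 libraries and the contrast Pool 2 minus Vehicle. Adjustment followed Benjamini and Hochberg over all genes. The fit was repeated over the 18 libraries that remain without Pool 2 replicate 1 and Vehicle replicate 4. Groups came from the sample titles. A call needed a log2 fold change of 0.3 in size and an unadjusted p-value below 0.05. The study used the same limits and also left genes whose mean normalized count was under 10 out of its list of changed genes. That step was not applied to the main counts here. With it, 402 upregulated and 267 downregulated genes remain, whereas a refit on only the genes that reach a count of 10 gave 426 and 277. Each library came from 1 mouse.

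Named genes were, per direction, the 10 coding genes and 5 genes of other biotypes whose mean normalized count reached 10 and that passed the threshold in both sets, ranked by the larger of both p-values, and the 5 coding genes of smallest p-value past it over the 20 libraries only. In each list, members past it in both sets were named, or the 2 most expressed where there was none. Syt2, Pvalb, Gfap and Aif1 were always named, and other genes were named after their values were seen. The lists and the samples compared were chosen with earlier results of these data known. Exact permutation tests of 4 genes used SciPy 1.17.1 in Python 3.11.15 on log2 CPM with a prior count of 2. Alternatives were DESeq2 1.42.0, its size factors, 2 filters on low counts, a fit of the 2 groups alone, the default spread estimate, a replicate block and each library left out. The scripts were tested on simulated counts. The SE of a log2 fold change was its absolute value divided by the square root of the F statistic of the quasi-likelihood test. It is unreliable where the fold change is very small. The SDs and SEs given include the spread between mice, whereas the floors cover counting error only.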

Additional observations from a re-analysis of the deposited data

Results flagged for a closer look

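In 10 of 138 groups of 5 mice, a single mouse lay far from the other 4 by Dixon's criterion on the log2 CPM scale, which chance alone meets in about 1 in 20 groups. In Pool 2 replicate 1 this held for the mean log2 CPM of 7 lists, at 3.53 for sensors of foreign RNA, 6.46 for antigen presentation, 4.59 for complement and 1.80 for cytokines and chemokines. The same mouse stood apart at 4.34 for reactive astrocytes, 8.22 for homeostatic astrocytes and 5.11 for endothelial genes. Vehicle replicate 1 stood apart at 2.91 for adult neurogenesis. Vehicle replicate 5 stood apart for A730011C13Rik at 2.00 CPM and for Gm1821 at 14.7 CPM. Which lists met the criterion depended on the scale. On summed CPM, computed afterwards, 14 list and group pairs met it in place of 8, and of the 7 lists named for Pool 2 replicate 1 these included antigen presentation, complement and cytokines but not RNA sensors, astrocyte or endothelial genes.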

How the results depend on the processing

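Upregulated genes numbered 706 over the 20 libraries. They numbered 426 when only genes whose mean normalized count reached 10 were tested, 444 after edgeR's own filter on low counts, where fewer genes are tested in both cases, 404 over the 18 libraries and 284 by DESeq2 over the 18. Downregulated genes numbered 475, and 277, 279, 382 and 296 in the same settings. Leaving out 1 library at a time gave 477 to 823 upregulated and 317 to 664 downregulated genes from the 20, and 287 to 459 and 300 to 600 from the 18, where the highest downregulated count came without Vehicle replicate 3. The last of these were added after the data had been seen. Genes with an adjusted p-value under 0.05 numbered 0 by edgeR in every setting tried, where the smallest adjusted p-value ranged from 0.111 to 1.00, and 9 and 8 by DESeq2 over the 20 and the 18 libraries. The cause of that difference between tools was not tested.

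Replicate numbers did not pair the mice, since same-numbered Pool 2 and Vehicle libraries had correlations of their deviations from -0.13 to 0.13. A fit with the replicate number as a block gave 582 upregulated and 355 downregulated genes over the 20 libraries, and 294 and 249 over the 18.

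Among the 4 genes read in every group, Aif1 turned from 0.52 on the log2 scale to -0.42 over the 18 libraries, also by DESeq2, and leaving out 1 library gave -0.32 (without Pool 2 replicate 1) to 0.71. Syt2 ranged from -0.069 (without Pool 2 replicate 5) to 0.31. With 5 mice a group and total counts above 20588280, genes near the floor of 3 counts, such as Abhd12b and Gbx2 in Vehicle mice, have no usable fold change.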

Other observations

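Saa3, an acute phase protein of inflamed tissue, measured 17.9 CPM in Pool 2 replicate 1 and 0.0389 to 0.0430 CPM in the other Pool 2 mice, the level of a single count. Vehicle mice held 3.75, 2.16, 0, 0.176 and 2.37 CPM, so that it was above the floor in 4 Vehicle mice and in 1 Pool 2 mouse.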
